A study of Mus musculus with 12 samples.

Results

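Fumarate hydratase was silenced in mouse renal tubular epithelial cells that also received TGF-β1, and 6 of the 12 RNA-seq libraries of the series bear on that contrast. They are the 3 libraries of silenced cells with TGF-β1 (KD+TGF-β1) and the 3 of control cells with TGF-β1 (NC+TGF-β1), chosen by their labels. The other 6 libraries hold silenced (KD) and control (NC) cells without TGF-β1. All are labelled as the cell line mTEC, from total RNA extracted with TRIzol and made into mRNA libraries with a BGI kit. The silencing reagent, the dose and length of the TGF-β1 treatment and the age and strain of the source animals are not given in the sources used here. Nor do the labels say whether replicates are separate cultures, so p-values measure the spread between these libraries, which may be technical. Because a library is a bulk sample of 1 cell line, fewer cells in a state and less RNA per cell cannot be told apart.

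Fumarate hydratase is the enzyme of the tricarboxylic acid cycle that hydrates fumarate to malate. Cells that lose it accumulate fumarate, which can bind to cysteine residues of proteins. TGF-β1 binds a receptor kinase that activates SMAD transcription factors, and in the injured kidney it drives matrix production and dedifferentiation of tubular cells. ATF4 is a transcription factor made when translation is throttled by kinases of eIF2α, and it turns on genes for amino acid uptake, amino acid synthesis and the loading of tRNA.

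The 6 libraries held 17651213 to 17968277 estimated counts each, and 11707 genes were tested. On the first principal component of the 6 libraries, which held 31.9% of the variance, NC+TGF-β1 lay between -11.89 and -8.78 and KD+TGF-β1 between 8.11 and 12.09. Of 19 markers of renal tubular epithelium, 14 had 3 or more counts in a library, led by the keratins Krt8 and Krt18, and their summed level was 5616 to 5754 CPM in NC+TGF-β1 and 5970 to 6105 CPM in KD+TGF-β1. Markers of differentiated nephron segments were divided: the cadherin Cdh16 had 6827 to 7172 counts, the water channel Aqp1 398 to 452 and the receptor Cubn 93 to 120, while Aqp2, a water channel of the collecting duct, had 0 counts in all 6 libraries, and Umod, Slc34a1 and Slc12a3 had at most 2. Hnf4a had at most 1. Lrp2, among the 14, had 13 counts in KD+TGF-β1 replicate 1 and at most 2 in any other of the 6. Of 8 fibroblast markers 5 had 3 or more counts, and they summed to 5.90 to 7.65 CPM in NC+TGF-β1 and 6.12 to 6.93 CPM in KD+TGF-β1. Most of that sum was Col1a1, at 94 to 126 counts, and the other fibroblast markers had at most 8. Of 6 endothelial markers 2 had 3 or more counts, with Tie1 at 0, and they summed to 2.75 to 3.57 and 3.19 to 4.0 CPM, most of it from Cdh5 (45 to 68 counts). Of 7 leukocyte markers 3 did and they summed to 94.05 to 98.97 CPM in NC+TGF-β1 and 82.0 to 85.8 CPM in KD+TGF-β1, nearly all of it from Csf1r, while Ptprc, the marker shared by leukocytes, had at most 9 counts.

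KD+TGF-β1 replicate 1 stood apart by RNA of pluripotent cells. Of 16 listed pluripotency markers 15 were in the tables, and these had 810 estimated counts there and at most 179 in any of the other 11 libraries. Pou5f1, a defining factor of pluripotency, had 167 counts in that library and at most 1 elsewhere, and Nanog had 46 and 0. In all, 61 genes had 3 or more counts in that library and 0 in the other 11, where such genes numbered 0 to 3 for each other library. Results are therefore also given without it.

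**Figure D1:**
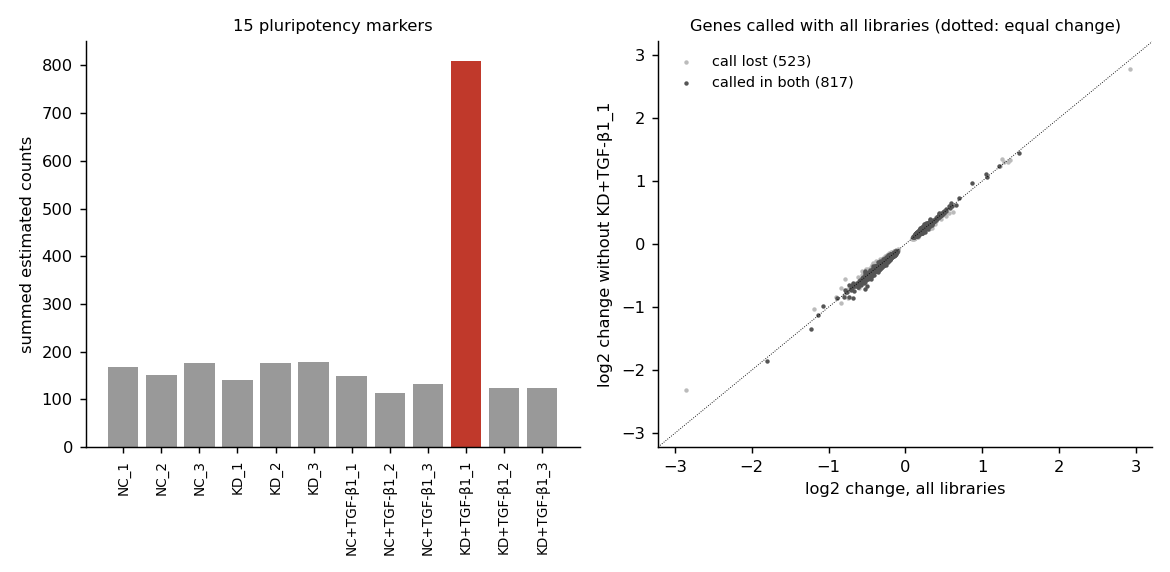
Left, summed estimated counts of 15 pluripotency markers in each of the 12 libraries, with KD+TGF-β1 replicate 1 in red at 810. Right, the log2 change with and without that library for the 1340 genes called with all libraries, of which 817 kept the call; no change of sign occurred.

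The targeted gene was low in every silenced library. Fh1 (Entrez 14194) stood at 49.6, 49.7 and 49.4 CPM in NC+TGF-β1 and 15.01, 13.7 and 13.8 CPM in KD+TGF-β1 libraries. The groups did not overlap, and the silenced libraries kept 28.6% of the control level (27.6 to 29.6% at ± 1 SE; log2 change -1.81, SE 0.051, adjusted p = 8.95e-11). Without KD+TGF-β1 replicate 1 the log2 change was -1.85. Akap12 (Entrez 83397), which the series title names, is an anchor for protein kinase A. It stood at 749.5, 761 and 743 CPM in NC+TGF-β1 and 887, 895 and 851 CPM in KD+TGF-β1 libraries. All silenced libraries were above all controls (log2 change 0.225, SE 0.029, adjusted p = 0.000314). Among 24 tested genes for AKAPs and PKA subunits, Akap12 was the 1 called higher and Prkar2a, a regulatory PKA subunit, was the 1 called lower (from 109, 114 and 112 to 84.8, 82.5 and 85.6 CPM; log2 change -0.40, SE 0.039, adjusted p = 2.72e-05). That is 4.17% in each direction, near the 5.42% higher and 6.02% lower of all genes tested.

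Silencing with TGF-β1 moved many genes by little. At an adjusted p under 0.05, 1340 genes were called (11.4% of those tested), 635 of them higher (5.42%) and 705 lower (6.02%). The median size of a called change was 1.16-fold. Past 1.5-fold there were 62 called genes, 16 higher and 46 lower, and past 2-fold 16, 10 higher and 6 lower. The libraries of the groups did not overlap for 32.2% of all genes tested and for 1337 of the 1340 called. Separate groups thus add little to a call. Of the calls, 594 (5.07% of genes tested; 264 higher, 330 lower) were made in each of the 6 fits that leave out 1 TGF-β1 library. Without KD+TGF-β1 replicate 1, 859 genes were called (7.34%; 404 higher, 455 lower). Of these, 817 were also called with it and 42 were not, and the median shift of a called gene was 0.015 on the log2 scale. Leaving out replicate 2 or 3 of the same group gave 885 and 783 calls.

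**Figure D2:**
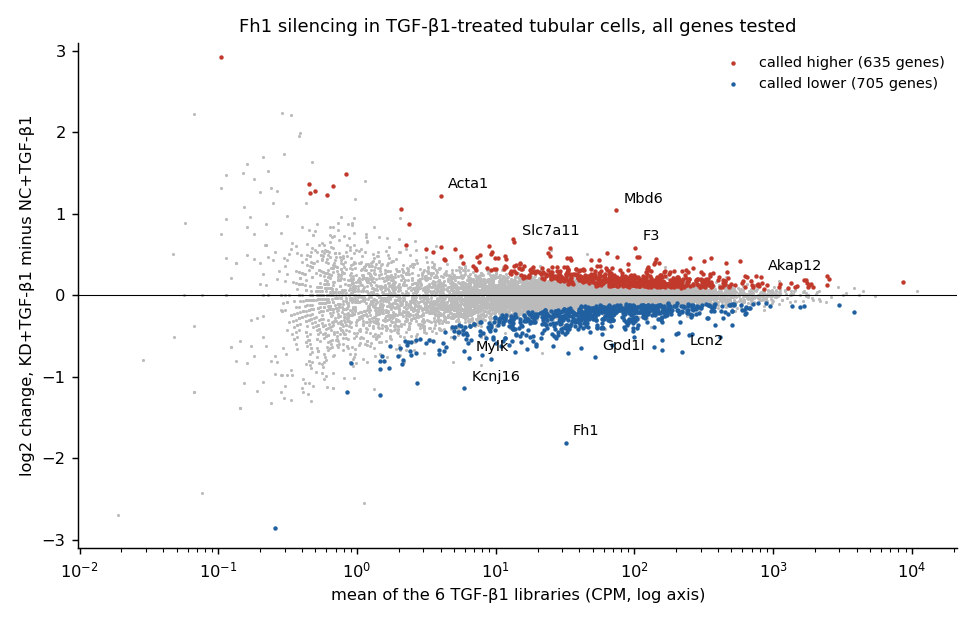
Log2 change (KD+TGF-β1 minus NC+TGF-β1) against the mean level over the 6 TGF-β1 libraries in CPM (log axis) for the genes tested; red and blue points are the 635 genes called higher and the 705 called lower. Most called changes lie within 1 log2 unit of 0, and Fh1 stands lowest among well-measured genes; 6 genes, 0 of them called, lie beyond the axis.

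Among single genes that were called with at least 5 CPM in a group and no overlap of the groups, Acta1 and Mbd6 rose most. Acta1 (Entrez 11459), skeletal muscle α-actin, stood at 2.39, 1.98 and 2.87 CPM in NC+TGF-β1 and 5.55, 5.77 and 5.63 CPM in KD+TGF-β1 libraries (log2 change 1.225, SE 0.149, adjusted p = 0.000176). It lies low and shares much of its coding sequence with other actins, so its counts are uncertain. Acta2, the smooth muscle actin, did not pass (from 2.28, 2.66 and 3.16 to 3.29, 3.09 and 3.28 CPM; 0.25, adjusted p = 0.397). Mbd6 (Entrez 110962), a methyl-CpG-binding domain protein, stood at 47.3, 47.4 and 49.5 CPM in NC+TGF-β1 and 89.9, 106 and 102 CPM in KD+TGF-β1 libraries (log2 change 1.05, SE 0.055, adjusted p = 6.82e-08). Its silenced libraries lay far above the controls, replicate 1 least so.

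F3 (Entrez 14066), the tissue factor that starts coagulation, stood at 80.2, 82.05 and 80.5 CPM in NC+TGF-β1 and 124, 118 and 123 CPM in KD+TGF-β1 libraries (log2 change 0.585, SE 0.038, adjusted p = 6.04e-07). Ptpn22, a tyrosine phosphatase, rose from 9.405, 10.3 and 10.7 to 15.5, 16.4 and 17.3 CPM (log2 change 0.69, SE 0.070, adjusted p = 3.63e-05). The groups of both genes did not overlap, as the naming rule required. Snx30, a sorting nexin of endosomes, rose from 19.4, 18.7 and 21.1 to 28.2, 28.5 and 31.8 CPM (log2 change 0.58, SE 0.076, adjusted p = 0.000321). Arg1, the arginase that splits arginine into urea and ornithine, rose at a low level, from 3.93, 3.85 and 4.59 to 5.72, 7.14 and 5.46 CPM (log2 change 0.57, SE 0.124, adjusted p = 0.00981). P2rx4, an ATP-gated ion channel, rose from 8.27, 7.53 and 7.07 to 10.5, 11.3 and 10.8 CPM (log2 change 0.51, SE 0.082, adjusted p = 0.00141). Nipal1, Ifi202b, Fbxw10 and Ftl1-ps2 complete the 12 largest increases, which also include Slc7a11, a cystine importer, at log2 changes of 0.50, 0.53, 0.49 and 0.49 (adjusted p = 0.00445, 0.00354, 0.0147 and 0.00834). Ftl1-ps2 is a ferritin pseudogene and Ifi202b belongs to a family of close copies, so reads of both may come from relatives. Fbxw10 lost its call in 2 of the 6 (adjusted p up to 0.0575) fits that leave out 1 TGF-β1 library.

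Besides Fh1, the largest decrease was that of Kcnj16 (Entrez 16517), an inwardly rectifying potassium channel of the tubule, at 8.61, 7.696 and 8.21 CPM in NC+TGF-β1 and 3.68, 3.94 and 3.51 CPM in KD+TGF-β1 libraries (log2 change -1.14, SE 0.098, adjusted p = 1e-05). Lcn2 (Entrez 16819), the siderophore-binding lipocalin known as NGAL and used as a marker of tubular injury, stood at 268, 278 and 276 CPM in NC+TGF-β1 and 169, 167 and 172 CPM in KD+TGF-β1 libraries (log2 change -0.70, SE 0.031, adjusted p = 1.5e-08). In both genes every silenced library was below every control, as the naming rule required. Gpd1l (Entrez 333433), a glycerol-3-phosphate dehydrogenase-like enzyme, fell from 67.2, 65.98 and 64.05 to 39.5, 37.7 and 39.6 CPM (log2 change -0.76, SE 0.037, adjusted p = 3.96e-08). Fbxw11, a substrate receptor of an SCF ubiquitin ligase, fell from 196, 194 and 194 to 122, 121 and 124 CPM (log2 change -0.67, SE 0.030, adjusted p = 1.5e-08). Vipas39, a trafficking protein, fell from 41.1, 43.1 and 40.3 to 25.7, 24.8 and 25.8 CPM (log2 change -0.71, SE 0.048, adjusted p = 9.01e-07). The replicates of these 3 genes lay close together within each group.

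Mylk, the kinase of the myosin light chain, fell from 8.21, 8.49 and 7.53 to 4.59, 4.97 and 4.6 CPM (log2 change -0.77, SE 0.101, adjusted p = 0.000314). E2f8, an atypical E2F repressor, fell from 49.1, 52.4 and 49.4 to 32.4, 29.8 and 34.6 CPM (log2 change -0.64, SE 0.051, adjusted p = 4.56e-06). Further genes of the 12 largest decreases were C1qtnf1 (-0.74, adjusted p = 0.00135), secreted and related to complement C1q, Csdc2 (-0.68, adjusted p = 0.00314), Prnd (-0.68, adjusted p = 0.00261), the prion-like doppel, and Tspan18 (-0.65, adjusted p = 0.000321), a tetraspanin. All 12 kept their call in each of the 6 fits without 1 TGF-β1 library.

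**Figure D3:**
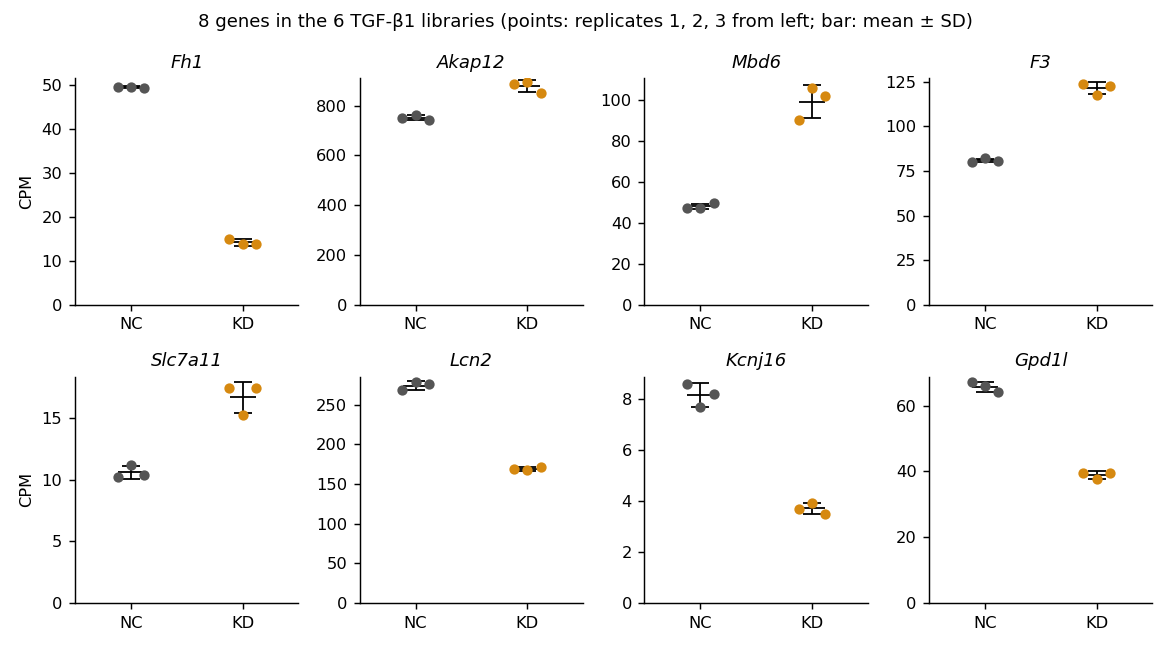
Level in CPM (axes start at 0) of 8 genes in the 6 TGF-β1 libraries; points are replicates 1, 2 and 3, and bars give the mean ± SD of 3. The control and silenced libraries do not overlap in any of the 8 genes, which the naming rule required of all but Fh1 and Akap12. Fh1 has 49.4 to 49.7 CPM in controls and 13.7 to 15.01 CPM in silenced cells.

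Part of the ATF4 program was higher in silenced cells. Of 23 tested ATF4 regulators and stress effectors, 10 rose and 2 fell, with a median log2 change of 0.19 against 0.002 over all genes tested. Without KD+TGF-β1 replicate 1 it was 9 and 1. The 10 and 2 are 43.5% and 8.70% of the list, against 5.42% higher and 6.02% lower of all genes tested. Sesn2, a leucine-sensing stress protein, stood at 48.7, 46.1 and 46.99 CPM in NC+TGF-β1 and 63.9, 64.1 and 62.96 CPM in KD+TGF-β1 libraries (log2 change 0.43, SE 0.048, adjusted p = 8.79e-05). Ddit3, the proapoptotic factor CHOP, rose from 12.1, 12 and 11.3 to 14.8, 14.3 and 16.4 CPM (log2 change 0.36, SE 0.076, adjusted p = 0.00759). Nupr1, a stress-induced chromatin protein, rose from 29.9, 27.4 and 30.7 to 36.7, 35.1 and 38.5 CPM (log2 change 0.33, SE 0.056, adjusted p = 0.00209). The groups were apart in all 3 genes.

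Atf4 itself rose from 378, 353 and 384 to 417, 426 and 425 CPM (log2 change 0.19, SE 0.032, adjusted p = 0.00207), and Atf3, a stress-induced member of the same family, rose from 16.9, 19.1 and 17.1 to 20.9, 23.3 and 21.4 CPM (log2 change 0.30, SE 0.062, adjusted p = 0.00661). Eif2ak3, the eIF2α kinase PERK of the endoplasmic reticulum, rose by 0.24 on the log2 scale (adjusted p = 0.00185), and Ppp1r15a, which brings a phosphatase to eIF2α, rose by 0.26 (adjusted p = 0.00268). The other eIF2α kinases, Eif2ak1, Eif2ak2 and Eif2ak4, had log2 changes of 0.011, 0.048 and 0.008 and did not pass. The feedback kinase-like Trib3 rose by 0.27 (adjusted p = 0.00768) and Chac1, which degrades glutathione, by 0.27 (adjusted p = 0.00261). The members called lower were Cebpg (-0.22), a partner of ATF4, and the cytokine Gdf15 (-0.15). They lost their calls in 2 of the 6 (adjusted p up to 0.0681) and 5 of the 6 (adjusted p up to 0.183) fits without 1 TGF-β1 library.

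Of 20 tested cytosolic aminoacyl-tRNA synthetases, which load amino acids onto tRNA, 10 rose and 0 fell (median 0.098). Nars (asparagine) rose from 370.2, 384 and 373 to 453, 424 and 444 CPM (log2 change 0.23, SE 0.033, adjusted p = 0.000615), Cars (cysteine) from 211, 207 and 209 to 241, 235 and 244 CPM (log2 change 0.20, SE 0.030, adjusted p = 0.000966) and Gars (glycine) from 289, 282 and 288 to 324, 325 and 329 CPM (log2 change 0.19, SE 0.026, adjusted p = 0.000582). All silenced libraries were above all controls in these 3 genes. Of the 10, 5 were called without KD+TGF-β1 replicate 1 and 5 in each of the 6 fits. Of 16 tested amino acid transporters 4 rose and 0 fell. Slc7a11 (Entrez 26570), the cystine importer xCT, stood at 10.2, 11.2 and 10.3 CPM in NC+TGF-β1 and 17.4, 15.2 and 17.4 CPM in KD+TGF-β1 libraries (log2 change 0.655, SE 0.132, adjusted p = 0.0057). Its partner chain Slc3a2 rose from 263, 260.3 and 277 to 304, 317 and 302 CPM (log2 change 0.21, SE 0.031, adjusted p = 0.000832), and Slc7a5, the leucine importer that also pairs with Slc3a2, rose from 75.7, 76.2 and 78.8 to 92.6, 89.4 and 85.8 CPM (log2 change 0.215, SE 0.034, adjusted p = 0.00135). The glycine transporter Slc6a9 rose by 0.245 (adjusted p = 0.0132), and lost its call in 2 of the 6 (adjusted p up to 0.0616) fits.

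Serine and one-carbon genes moved less. Of 14 tested, 3 rose and 1 fell (1 and 1 without KD+TGF-β1 replicate 1), with a median of 0.026. With all libraries that is 21.4% higher and 7.14% lower, against 5.42% and 6.02% of all genes tested. Mthfd2, a mitochondrial folate enzyme, rose from 95.8, 105 and 99.1 to 118, 115 and 111 CPM (log2 change 0.20, SE 0.038, adjusted p = 0.00451). Cbs, cystathionine β-synthase, which makes cystathionine from homocysteine and serine, fell from 10.8, 13.1 and 12.4 to 8.04, 7.71 and 8.39 CPM (log2 change -0.585, SE 0.090, adjusted p = 0.00105). Phgdh, Psat1 and Psph, the enzymes of serine synthesis, had log2 changes of 0.033, 0.044 and -0.053 and did not pass. Asns, asparagine synthetase, rose by 0.17 (adjusted p = 0.0126) and the transaminase Gpt2 by 0.20 (adjusted p = 0.0255). They lost their calls in 2 of the 6 (adjusted p up to 0.0591) and 3 of the 6 (adjusted p up to 0.105) fits without 1 TGF-β1 library.

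The promoters of these genes were searched for TGATGNAA, the composite element bound by ATF4 with a C/EBP partner, on both strands of the RefSeq window of GRCm38.p6 from 250 bases before to 50 after the gene start. Over the 4 lists, it was found in 12 of the 22 members called higher that have a window in the table. It was also in 5 of the 35 members not called higher, and in 2.74% of the tested genes with a window. The following stretches show it in genes of each role, with each match, on either strand, in capitals.
Slc7a11 promoter, chr3:50443646-50443705, minus strand: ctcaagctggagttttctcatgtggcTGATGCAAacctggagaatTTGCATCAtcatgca
Nupr1 promoter, chr7:126625547-126625606, minus strand: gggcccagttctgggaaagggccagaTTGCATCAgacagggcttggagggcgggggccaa
Atf3 promoter, chr1:191183410-191183469, minus strand: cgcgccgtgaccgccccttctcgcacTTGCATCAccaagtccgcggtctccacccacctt
Trib3 promoter, chr2:152344013-152344072, minus strand: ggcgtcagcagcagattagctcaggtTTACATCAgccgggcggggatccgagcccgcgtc
Chac1 promoter, chr2:119351023-119351082, plus strand: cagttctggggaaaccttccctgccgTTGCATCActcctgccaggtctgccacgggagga
Asns promoter, chr6:7693199-7693258, minus strand: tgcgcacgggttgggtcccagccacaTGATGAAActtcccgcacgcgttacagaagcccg
Gars promoter, chr6:55037945-55038004, plus strand: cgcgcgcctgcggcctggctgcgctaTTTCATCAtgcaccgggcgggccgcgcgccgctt
Aars promoter, chr8:111033704-111033763, plus strand: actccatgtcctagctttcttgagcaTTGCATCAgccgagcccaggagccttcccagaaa
In Slc7a11, Aars, Nupr1 and Atf3 the first match begins 66, 112, 110 and 110 bases before the start, and 1 more match of Aars lies outside the stretch. A match describes these letters only and is not evidence of binding.

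For part of the ATF4 program the response to silencing differed from that of cells without TGF-β1. Over the 73 tested genes of the 4 lists, the median log2 change was 0.094 with TGF-β1 and -0.065 without it. With TGF-β1 27 were called higher and 3 lower, and without it 1 and 11. The test of the difference (the interaction of silencing with TGF-β1) called 104 of all genes (0.888%), 55 with a higher and 49 with a lower change under TGF-β1. Without 1 of the 12 libraries it called 37 to 146, with 37 where KD replicate 3 was left out. Of the 73 genes 16 were among them, all with a higher change. Slc7a11 had a log2 change of -0.26 without TGF-β1 (adjusted p = 0.196) and an interaction of 0.92 (SE 0.166, adjusted p = 0.0187). Nupr1 fell without TGF-β1, by 0.265 on the log2 scale (adjusted p = 0.00397; interaction 0.59, adjusted p = 0.0013), and Chac1 fell by 0.30 (adjusted p = 0.000644; interaction 0.57, adjusted p = 0.000844). Slc6a9 also changed sign (-0.28 without TGF-β1, adjusted p = 0.00616; interaction 0.53, adjusted p = 0.00567). Slc7a11, Nupr1, Chac1 and Slc6a9 all lay lower in the libraries with TGF-β1, silenced or not. Slc7a11 had a mean of 41.07 CPM in NC, 34.26 in KD, 10.58 in NC+TGF-β1 and 16.67 in KD+TGF-β1. In that order Nupr1 had 163.6, 136.2, 29.33 and 36.76 CPM. Chac1 had 82.7, 67.15, 26.13 and 31.43 CPM, and Slc6a9 had 105.8, 86.95, 40.47 and 47.97 CPM. The libraries with and without TGF-β1 come from separate deposited tables, so the cytokine and the table or run cannot be told apart in these differences. Nor can the deeper loss of Fh1, whose interaction was -0.98 (SE 0.069, adjusted p = 8.18e-06).

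**Figure D4:**
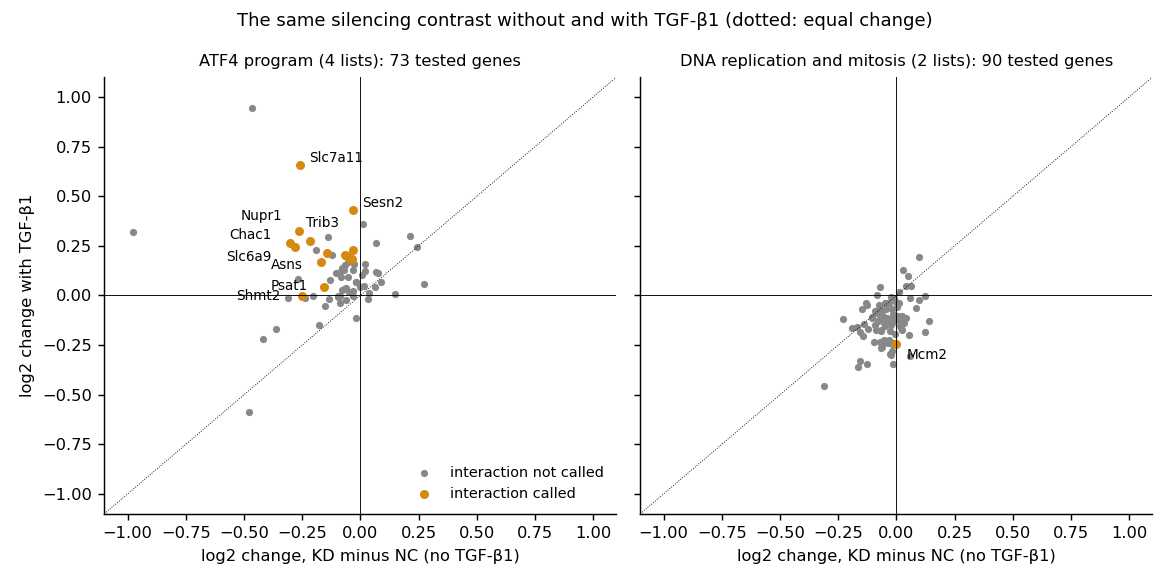
Log2 change with silencing in TGF-β1 libraries (vertical) against that in libraries without TGF-β1 (horizontal) for 73 tested genes of 4 ATF4 lists (left) and 90 of replication and mitosis (right). Orange marks genes called in the interaction, 16 on the left and 1 on the right, with the clearest labelled; many points on the left lie above the dotted line of equal change and to the left of 0.

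Targets of NRF2, the factor released when KEAP1 cysteines are modified, changed in part. Of 34 tested genes for NRF2 targets and glutathione 8 rose and 2 fell (median 0.077). That is 23.5% higher and 5.88% lower, against 5.42% and 6.02% of all genes tested. Sqstm1, the autophagy adaptor p62, stood at 490.4, 487 and 493 CPM in NC+TGF-β1 and 640.4, 674 and 661 CPM in KD+TGF-β1 libraries (log2 change 0.43, SE 0.029, adjusted p = 7.43e-07). Abcc4, an exporter of organic anions, rose from 302, 301 and 303 to 412, 421 and 413 CPM (log2 change 0.46, SE 0.024, adjusted p = 7.53e-08), and Hmox1, heme oxygenase, rose from 31.5, 28.8 and 29.1 to 38.02, 38.9 and 43.8 CPM (log2 change 0.43, SE 0.064, adjusted p = 0.000811). The groups were apart in all 3 genes. The glutathione transferase Gstm1 fell from 18.2, 20.9 and 18.8 to 13.5, 13.9 and 13.97 CPM (log2 change -0.48, SE 0.070, adjusted p = 0.000699), and its family shares sequence. The subunits of glutathione synthesis Gclc and Gclm were at 0.12 and 0.14 and did not pass. Among 14 tested genes of ferroptosis and iron handling 4 rose (28.6%) and 1 fell (7.14%). The risers Slc7a11 and Chac1 are also counted in the ATF4 lists above. Slc39a14 lost its call in 5 of the 6 (adjusted p up to 0.149) fits without 1 TGF-β1 library. The other riser was Ptgs2, cyclooxygenase 2 (from 92.8, 89.8 and 88.8 to 126, 121 and 129 CPM, log2 change 0.47, SE 0.085, adjusted p = 0.00307).

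Many cell cycle transcripts were lower in silenced cells. Of 43 tested genes for DNA replication and nucleotide synthesis 18 fell and 0 rose (median -0.14), and of 47 for the mitotic spindle and G2/M 18 fell and 0 rose (median -0.12). That is 41.9% and 38.3% lower, against 6.02% of all genes tested. Without KD+TGF-β1 replicate 1 the first list had 14 lower and 1 higher and the second 13 lower. Calls made in each of the 6 fits without 1 TGF-β1 library numbered 11 and 7. Rrm1, the large subunit of ribonucleotide reductase, stood at 240.2, 237 and 241 CPM in NC+TGF-β1 and 173, 172 and 179 CPM in KD+TGF-β1 libraries (log2 change -0.46, SE 0.026, adjusted p = 1.45e-07). Tpx2, a spindle assembly factor, fell from 239.8, 238 and 232 to 188, 190.2 and 187 CPM (log2 change -0.33, SE 0.029, adjusted p = 1.09e-05). The groups of both genes were far apart, and their replicates close.

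Cyclin E1 (Ccne1), which drives entry into S phase, fell from 18.3, 16.1 and 17.2 to 14.3, 12.5 and 13.4 CPM (log2 change -0.36, SE 0.072, adjusted p = 0.00547), and Cdc6, which loads the replicative helicase, fell from 24.5, 24.3 and 23.2 to 19.3, 18.9 and 18.4 CPM (log2 change -0.35, SE 0.057, adjusted p = 0.00159). The histone chaperone subunit Chaf1b fell from 37.2, 38.03 and 34.8 to 30.9, 27.9 and 30.5 CPM (log2 change -0.30, SE 0.051, adjusted p = 0.00199). All silenced libraries of these 3 genes were below all controls. Of the helicase itself Mcm2 fell by 0.245 on the log2 scale (adjusted p = 0.00103), Mcm6 by 0.18 (adjusted p = 0.000811) and Mcm3 by 0.20 (adjusted p = 0.0123), the last losing its call in 2 of the 6 (adjusted p up to 0.0611) fits. Mcm4, Mcm5 and Mcm7 were at -0.10, -0.11 and -0.040 and did not pass. In mitosis, Cdca8, a subunit of the chromosomal passenger complex, fell from 51.1, 52.96 and 47.3 to 38.4, 40.01 and 40.9 CPM (log2 change -0.34, SE 0.052, adjusted p = 0.000963) and its kinase Aurkb from 52.95, 51.3 and 53.9 to 44.7, 44.1 and 45.2 CPM (log2 change -0.24, SE 0.046, adjusted p = 0.00422). Mki67, the proliferation marker, fell from 278, 304 and 270.4 to 239, 245 and 234 CPM (log2 change -0.25, SE 0.050, adjusted p = 0.00598).

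Over the 90 genes of both lists the median log2 change was -0.127 with TGF-β1 and -0.034 without it, where 2 genes were called lower. The interaction called 1 of the 90, Mcm2 (-0.24; log2 change -0.002 without TGF-β1), so for the others a difference between the settings was not shown. The E2F motif TTTNGCGC was found in 4 of the 15 lower replication genes with a promoter window, in 11 of the 34 tested members and in 2.96% of tested genes. The share in the lower genes was thus close to that of the list as a whole. It is shown for 3 of the lower genes, with each match, on either strand, in capitals.
Lig1 promoter, chr7:13278826-13278875, plus strand: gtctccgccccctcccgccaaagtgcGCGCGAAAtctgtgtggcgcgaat
Uhrf1 promoter, chr17:56304102-56304161, plus strand: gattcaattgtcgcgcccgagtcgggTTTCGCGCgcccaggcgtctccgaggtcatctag
Mcm6 promoter, chr1:128359782-128359841, minus strand: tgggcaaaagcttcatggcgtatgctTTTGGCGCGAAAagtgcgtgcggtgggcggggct
In Mcm6 the capitals hold 2 overlapping matches, 1 on each strand, and 1 more lies outside the stretch. Lig1, the ligase that joins lagging strands, fell by 0.29 on the log2 scale (adjusted p = 0.00122) and Uhrf1, which keeps DNA methylation through replication, by 0.28 (adjusted p = 0.000936). CCAAT, the NF-Y box, was in 10 of 13 lower mitotic genes, in 30 of the 40 tested members and in 44.3% of tested genes.

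Single brakes on the cycle moved the other way. Cdkn1a, the inhibitor p21, stood at 417, 422 and 417 CPM in NC+TGF-β1 and 509, 508 and 515 CPM in KD+TGF-β1 libraries (log2 change 0.29, SE 0.033, adjusted p = 0.000124), without overlap of the groups. Btg2, an antiproliferative p53 target, rose from 123, 122 and 117 to 168, 157 and 168 CPM (log2 change 0.44, SE 0.034, adjusted p = 2.93e-06). Among 28 tested p53 targets 7 rose and 3 fell (median 0.046), and 8 of these calls were made in each of the 6 fits. Tigar, a fructose bisphosphatase, was among those that fell (from 36.2, 34.6 and 33.4 to 26.7, 26 and 25.9 CPM; log2 change -0.405, SE 0.046, adjusted p = 0.000101). Of 14 tested brakes and G1 cyclins 2 rose, Cdkn1a and Ccnd1, cyclin D1 (from 1252, 1272 and 1263 to 1384, 1403 and 1426 CPM; 0.15, adjusted p = 0.00151), and 2 fell, Cdk6 (from 169, 172 and 171 to 139.8, 139 and 136 CPM; -0.30, adjusted p = 3.47e-05) and Cdk4 (from 534, 514 and 523 to 481, 493 and 489 CPM; -0.10, adjusted p = 0.0192), the kinases that pair with cyclin D. Cdk4 lost its call in 4 of the 6 (adjusted p up to 0.0763) fits. In this list of brakes and G1 cyclins the share called was 14.3% in each direction. In the BCL2 family of cell death regulators, 3 of 14 tested genes rose (21.4%) and 0 fell. Among the risers were the proapoptotic Bcl2l11 (0.21, adjusted p = 0.00442) and Bak1 (0.225, adjusted p = 0.00675).

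**Figure D5:**
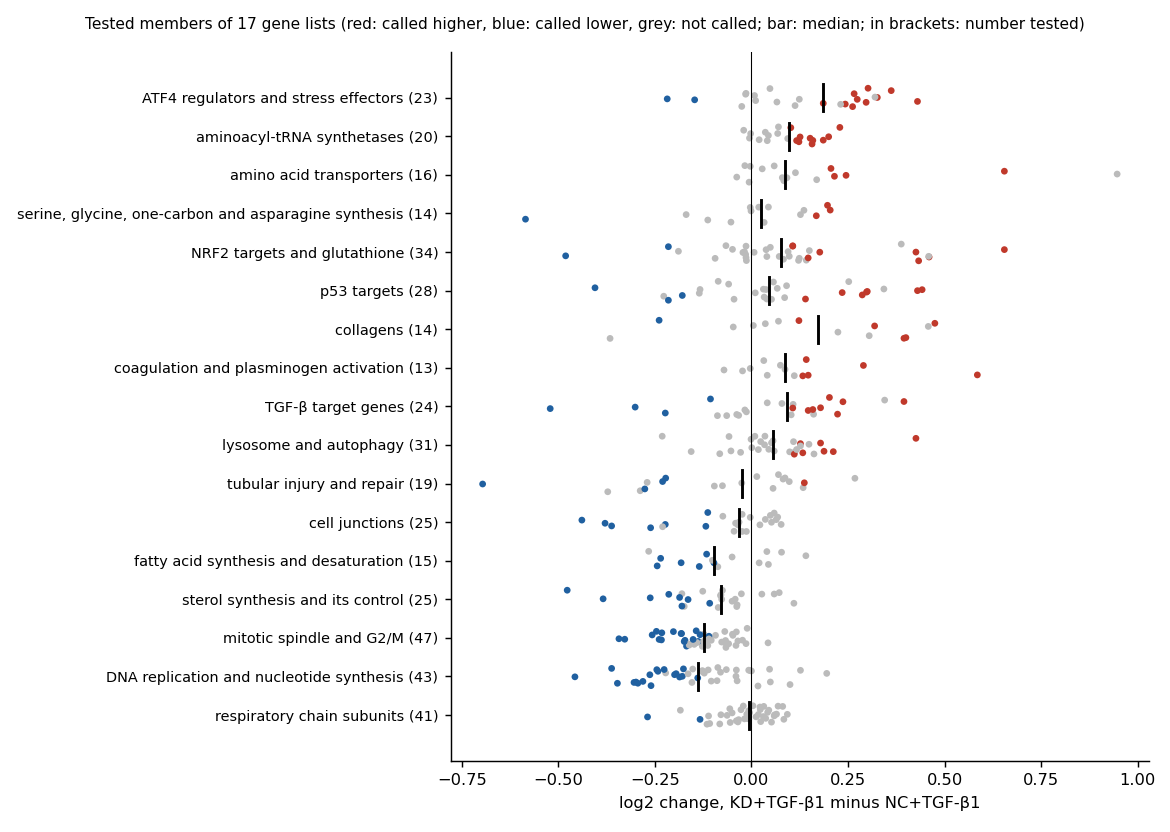
Log2 change (KD+TGF-β1 minus NC+TGF-β1) of each tested member of 17 gene lists, red where called higher, blue where called lower, grey where not called, with the list median as a bar; Fh1 is not drawn. Medians run from 0.186 for ATF4 regulators to -0.139 for DNA replication, and the respiratory chain sits near 0.

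Lipid synthesis was lower in part. Of 25 tested sterol genes 8 fell and 0 rose (median -0.080), 6 of them also without KD+TGF-β1 replicate 1. The 8 are 32.0% of the list, against 6.02% lower of all genes tested. Hmgcs1, HMG-CoA synthase at the head of the pathway, stood at 304, 306 and 299 CPM in NC+TGF-β1 and 224, 216 and 214 CPM in KD+TGF-β1 libraries (log2 change -0.48, SE 0.054, adjusted p = 0.000101), well apart. Sc5d, a late sterol desaturase, fell from 67.1, 65.98 and 65.1 to 49.9, 48.9 and 53.1 CPM (log2 change -0.38, SE 0.047, adjusted p = 0.000175), and Acat2, which makes acetoacetyl-CoA, fell from 173, 179 and 166 to 141, 148 and 142 CPM (log2 change -0.26, SE 0.040, adjusted p = 0.000977). Of 15 tested genes for fatty acid synthesis and desaturation 6 fell (40.0%) and 0 rose, 2 of them without KD+TGF-β1 replicate 1. These 2 were the desaturases Scd1 (from 129, 133 and 131 to 109, 108 and 115 CPM; -0.24, adjusted p = 0.000403) and Scd2 (from 3076, 3210 and 3079 to 2884, 2897 and 2863 CPM; -0.12, adjusted p = 0.00703).

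Lists of energy metabolism are set here against the 5.42% of all genes tested called higher and the 6.02% called lower. Of 28 tested genes of the tricarboxylic acid cycle, Fh1 included, 1 rose and 4 fell, and without KD+TGF-β1 replicate 1 it was 0 and 2. Besides Fh1, Dlst, a subunit of oxoglutarate dehydrogenase, fell from 159.9, 155 and 159 to 141, 135 and 134 CPM (log2 change -0.21, SE 0.033, adjusted p = 0.00126). Fah, Adsl and Asl, which release fumarate in tyrosine breakdown, purine synthesis and the urea cycle, had log2 changes of -0.145, -0.044 and 0.10 and did not pass (adjusted p = 0.205, 0.609 and 0.119). Respiratory chain subunits had 2 of 41 lower and 0 higher (median -0.007), with Ndufv2 of complex I at -0.27, adjusted p = 0.00698. Fatty acid oxidation had 1 of 19 lower, Eci2 (-0.26, adjusted p = 0.00383), an enoyl-CoA isomerase. Their shares called lower, 4.88% and 5.26%, were near that of all genes. Glycolysis and glucose uptake had 5 higher and 4 lower of 21: the glucose transporter Slc2a1 rose from 143, 134 and 140.2 to 165, 161 and 166 CPM (0.235, adjusted p = 0.000833), the aldolase Aldoa rose by 0.15 (adjusted p = 0.00523), and Pdk1, which inhibits pyruvate dehydrogenase, fell from 15.1, 15.2 and 15.2 to 12.8, 9.94 and 11.7 CPM (-0.40, adjusted p = 0.0062). Of 18 tested hypoxia genes 2 rose, Slc2a1 and Vegfa (0.19, adjusted p = 0.00391), and 2 fell, Pdk1 and the prolyl hydroxylase subunit P4ha1 (-0.20, adjusted p = 0.00834).

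Basement membrane collagens were among the matrix genes that rose. Of 14 tested collagens 5 rose and 1 fell (median 0.17). That is 35.7% higher and 7.14% lower, against 5.42% and 6.02% of all genes tested. Col4a2 stood at 86.7, 89.2 and 87.1 CPM in NC+TGF-β1 and 122, 125 and 119 CPM in KD+TGF-β1 libraries (log2 change 0.475, SE 0.038, adjusted p = 4.56e-06) and its partner chain Col4a1 rose from 121, 135 and 132 to 164, 177 and 169 CPM (log2 change 0.395, SE 0.042, adjusted p = 5.97e-05). Col7a1, the chain of anchoring fibrils, rose from 391, 371 and 418 to 523, 519 and 514 CPM (log2 change 0.40, SE 0.039, adjusted p = 2.72e-05). All silenced libraries of these genes were above the controls. Col1a1, the interstitial collagen and a fibroblast marker, lay near the floor and did not pass (from 5.36, 6.17 and 7.24 to 5.55, 6.17 and 6.44 CPM; -0.047, adjusted p = 0.885). Of 19 other matrix glycoproteins 5 rose (26.3%) and 4 fell (21.1%). Fn1, fibronectin, rose from 8086, 8206 and 8320 to 9226, 9174 and 9077 CPM (log2 change 0.16, SE 0.027, adjusted p = 0.00195) and Thbs1, thrombospondin 1, from 2286, 2345 and 2387 to 2672, 2667 and 2700 CPM (log2 change 0.20, SE 0.028, adjusted p = 0.000661). Lamc1, a laminin chain, fell from 62.9, 70.6 and 64.7 to 57.6, 52.8 and 52.5 CPM (log2 change -0.28, SE 0.053, adjusted p = 0.00363) and Spp1, osteopontin, from 363, 384 and 364 to 307, 288 and 322 CPM (log2 change -0.28, SE 0.042, adjusted p = 0.001). Of 19 crosslinking and processing enzymes 2 rose (10.5%), among them the collagen chaperone Serpinh1 (0.22, adjusted p = 0.000275), and 4 fell (21.1%), among them the metalloprotease Mmp15 (-0.46, adjusted p = 0.00647), and without KD+TGF-β1 replicate 1 it was 1 and 3.

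Among targets of the TGF-β pathway the changes were divided. Of 24 tested TGF-β targets 8 rose (33.3%) and 4 fell (16.7%), also 8 and 4 without KD+TGF-β1 replicate 1. Ccn2, a matricellular growth factor of fibrosis, rose from 2248, 2182 and 2263 to 2595, 2638 and 2656 CPM (log2 change 0.24, SE 0.034, adjusted p = 0.000582). Id2, an inhibitor of helix-loop-helix factors, fell from 13.7, 16.1 and 11.8 to 8.67, 10.5 and 9.78 CPM (log2 change -0.52, SE 0.101, adjusted p = 0.00446), and Nedd9, an adhesion adaptor, from 72.3, 77.8 and 73.1 to 61.9, 57.3 and 62.04 CPM (log2 change -0.30, SE 0.054, adjusted p = 0.00282). The inhibitory SMAD Smad7 was at 0.079 and did not pass. Among 27 tested ligands, receptors and SMADs 1 rose, the ubiquitin ligase Smurf1 (0.10, adjusted p = 0.0381), and 1 fell, the BMP receptor Bmpr1a (-0.24, adjusted p = 0.0481), and both lost the call without KD+TGF-β1 replicate 1 (adjusted p = 0.0946 and 0.137). That is 3.70% in each direction, below the 5.42% higher and 6.02% lower of all genes tested. Vim, vimentin, had 50 counts in KD+TGF-β1 replicate 1 and 6 to 13 in the other 5 libraries, and did not pass (1.19, adjusted p = 0.227; 0.031 without that library).

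The plasminogen and coagulation list had 5 of 13 tested genes higher and 0 lower. That is 38.5% higher, against 5.42% of all genes tested. Besides F3 they included the urokinase Plau (from 732, 721 and 749 to 809.6, 809.8 and 811 CPM; 0.14, adjusted p = 0.00593) and its receptor Plaur (from 166, 154 and 166 to 193, 207 and 195 CPM; 0.29, adjusted p = 0.000868). Of 19 tested YAP-TEAD targets 5 rose (26.3%) and 0 fell, F3, Ccn1 (0.22, adjusted p = 0.000203), Ccn2 and the receptor kinase Axl (0.125, adjusted p = 0.00834) among them. Integrins and focal adhesion genes had 5 of 20 higher, with Itgav (0.20, adjusted p = 0.00619) and Itga5 (0.25, adjusted p = 0.00661), and 3 lower, with Itga2 (-0.33, adjusted p = 0.000345), and without KD+TGF-β1 replicate 1 it was 3 and 2. Of 29 contractile genes 3 rose, Acta1 and the calponin Cnn2 (0.18, adjusted p = 0.00092) among them, and 3 fell: Mylk, the non-muscle myosin Myh10 (-0.23, adjusted p = 0.000583) and the cytoplasmic actin Actg1 (-0.20, adjusted p = 0.000365). That is 10.3% in each direction, against 5.42% higher and 6.02% lower of all genes tested.

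Junction genes fell where they were called. Of 25 tested, 7 fell and 0 rose, 4 of them also without KD+TGF-β1 replicate 1. The 7 are 28.0% of the list, against 6.02% lower of all genes tested. Tjp1, the tight junction scaffold ZO-1, stood at 415, 442 and 425 CPM in NC+TGF-β1 and 330.4, 333 and 334 CPM in KD+TGF-β1 libraries (log2 change -0.36, SE 0.038, adjusted p = 5.64e-05), without overlap. The tight junction claudin Cldn1 fell from 111, 109.9 and 114 to 79.2, 83.4 and 84.6 CPM (log2 change -0.44, SE 0.061, adjusted p = 0.000484) and the desmosomal cadherin Dsg2 from 38.2, 40.1 and 38.1 to 31.1, 28.9 and 29.6 CPM (log2 change -0.38, SE 0.055, adjusted p = 0.000699). E-cadherin, Cdh1, did not pass (from 290.4, 294 and 295 to 296, 296 and 302 CPM; 0.022, adjusted p = 0.635). Keratins had 3 of 9 higher (33.3%, against 5.42% of all genes tested) and 0 lower. The 3 were Krt8 (0.13, adjusted p = 0.00494), Krt18 (0.19, adjusted p = 0.0047) and Krt80 (0.19, adjusted p = 0.00261).

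Of the tubule's own genes, 2 of 21 tested transport genes rose and 2 fell (9.52% in each direction), and without KD+TGF-β1 replicate 1 it was 1 and 2. Over all genes tested 5.42% were called higher and 6.02% lower. Clcn5, the endosomal chloride transporter, stood at 214, 211 and 208 CPM in NC+TGF-β1 and 288, 289.9 and 291 CPM in KD+TGF-β1 libraries (log2 change 0.46, SE 0.026, adjusted p = 1.45e-07). Kcnj16 was among those that fell. Of 19 nephron transcription factors 3 fell (15.8%) and 0 rose, Pax2 (from 120.5, 114 and 121 to 85.1, 94.99 and 90.5 CPM; -0.39, adjusted p = 7.34e-05) and Pax8 (from 127, 129 and 123 to 108, 110 and 113 CPM; -0.19, adjusted p = 0.00347) among them. Of 19 tested genes of tubular injury and repair 1 rose (5.26%) and 4 fell (21.1%). Beside Lcn2 and Spp1, Clu, clusterin, fell from 645, 690.2 and 677 to 568, 558 and 589.8 CPM (-0.23, adjusted p = 0.000359) and Cd24a from 661, 719 and 676 to 576, 589 and 597 CPM (-0.22, adjusted p = 0.0062), while Havcr1, the injury marker KIM-1, was at -0.096 and did not pass. Lcn2 had a log2 change of -0.051 without TGF-β1 and an interaction of -0.645 (SE 0.044, adjusted p = 8.18e-06).

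Inflammatory genes gave calls in both directions, set here beside the 5.42% higher and 6.02% lower of all genes tested. Of 9 tested chemokines 2 fell (22.2%) and 0 rose: Cx3cl1, fractalkine, fell from 23.3, 23.8 and 23.4 to 16.4, 14.8 and 15.4 CPM (log2 change -0.595, SE 0.057, adjusted p = 2.38e-05) and Cxcl5, a neutrophil chemokine, from 16.3, 16.2 and 15.97 to 11.5, 11.1 and 12.2 CPM (log2 change -0.48, SE 0.088, adjusted p = 0.00331). The groups were apart in both. Of 7 tested genes of the complement list 2 fell (28.6%). They were C3 (from 109, 104 and 114 to 87.2, 85.1 and 85.4 CPM; -0.34, adjusted p = 0.000142), the central component, and C1qtnf1, which is related to C1q but is not itself a complement component. Of 25 genes for NF-κB subunits, inhibitors and adaptors 6 rose (24.0%) and 1 fell (4.0%), and without KD+TGF-β1 replicate 1 it was 1 and 1. The inhibitor Nfkbib kept its call (from 37.05, 34.4 and 36.4 to 43.2, 46.5 and 44.3 CPM; 0.31, adjusted p = 0.0017). The list of cytokines and receptors had 3 of 19 higher (15.8%), 1 of them Ptgs2, an enzyme that the list also holds. Immediate early genes had 4 of 24 higher (16.7%), with Klf6 (0.19, adjusted p = 0.00155), and 1 lower (4.17%), Fosl1 (-0.325, adjusted p = 0.00496). Without KD+TGF-β1 replicate 1 the immediate early genes had 2 higher and 1 lower, Ier2 and Ier3 losing their calls (adjusted p = 0.0636 and 0.0537). Of 21 tested interferon and antigen presentation genes 2 rose (9.52%) and 0 fell, and 0 of these calls were made in each of the 6 fits. The macrophage marker Csf1r, which carries the leukocyte sum above, fell by 0.19 (adjusted p = 0.00675), and what that sum adds to these results was not tested.

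With TGF-β1 more genes were called than without it. Without TGF-β1 429 genes passed (3.66% of those tested; 169 higher and 260 lower), with 176 higher and 151 lower by limma on log2(TPM + 1). The 429 ran from 212 without KD replicate 1 to 647 without NC replicate 3. A deeper loss of Fh1 goes with the larger count, so the numbers do not compare equal doses of silencing. Nor do they compare equal spread between replicates. Pairs of NC libraries had a chi-square per gene of 3.59 to 13.65, against 1.75 to 3.43 for pairs of NC+TGF-β1 libraries. For KD pairs it was 1.68 to 2.67, against 1.89 to 2.29 for KD+TGF-β1 pairs. What each adds to the counts was not tested. Genes called in the same direction in both settings numbered 276 (104 higher, 172 lower), which is 20.6% of the calls with TGF-β1 and 64.3% of those without, and 10 were called in opposite directions. Of the genes called with TGF-β1, 84.1% had the same direction without it, as had 62.3% of all genes tested. The contrasts share no library, but each pair of groups has its own table. Both also use the spread estimated in 1 fit over the 12 libraries. F3, Akap12 and Btg2 had like changes in both settings, at 0.585 and 0.59, 0.225 and 0.27, and 0.44 and 0.425. Their interactions were -0.002 (SE 0.056), -0.047 (SE 0.041) and 0.017 (SE 0.049), none called. Mbd6 rose more (1.05 against 0.60; interaction 0.44, adjusted p = 0.0151) and Gpd1l fell more (-0.76 against -0.41; interaction -0.345, adjusted p = 0.00692).

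Some of the strongest decreases carry short words in their 3′ UTRs that an earlier analysis of these data had picked in genes called lower, so their shares are a description only. Annotated 3′ UTRs (GENCODE, GRCm38) were at hand for 692 genes called lower, 630 called higher and 11451 of those tested. The word TCTACAC was in 19.5% of the lower genes, 4.44% of the higher and 8.65% of all. For CTACACA, which overlaps with it, the shares were 20.95%, 7.46% and 13.0%. For TTCTACA, which also overlaps, they were 18.2%, 13.7% and 13.5%, and for GACACCT 16.9%, 6.83% and 10.5%. At least 1 of the 4 was in 45.4%, 25.9% and 31.6%. Among called genes with a log2 change of -0.3 or below the share with the first word was 25.7%. The Fh1 transcript holds the last word at 2 places in its coding part and the other 3 words at 0. Of the 12 largest decreases besides Fh1, 6 hold a word, and 4 of them are shown with 11 bases on either side and 1 word in capitals. Vipas39 holds all 4 words, and in its stretch TTCTACA begins 1 base before the capitals.
Gpd1l 3′ UTR, chr9:114900064-114900092, minus strand: ataggctcagaGACACCTagattagaaac
C1qtnf1 3′ UTR, chr11:118448408-118448436, plus strand: ctatccctgcaTTCTACAgacactggagt
Vipas39 3′ UTR, chr12:87239707-87239735, minus strand: agtcacagcatTCTACACgtgagcctgtc
Fbxw11 3′ UTR, chr11:32744895-32744923, plus strand: gtgccaaacgaCTACACAgcgtcttcagg
Kcnj16, Mylk, Lcn2 and E2f8 hold 0 of the words. Of the 36 lower genes of replication and mitosis 8 hold one. The sequence of the silencing reagent is not given in the sources used here, and the part of such words in the decreases was not tested.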

How the data were processed

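The libraries with TGF-β1 and those without it come in separate deposited tables, which list RefSeq transcripts by Entrez ID. Per the file headers and the values, the authors give estimated counts (expected counts with decimals) and TPM per transcript. Of the other value columns, 40 were not used here. Named per the submitters' processing notes, without roles, are RSEM 1.3.1, DESeq2 1.34.0, Bowtie2 and HISAT2. The build named there, hg38, is human, so no coordinates rest on the files. Names come from the RefSeq table of GRCm38.p6, which matched 17533 of the 17659 IDs of the TGF-β1 table.

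Estimated counts were summed per Entrez ID and rounded, over the 15802 genes in both tables. edgeR 4.0.16 (R 4.3.3) used TMM scaling, the default expression filter, 1 coefficient per group over the 12 libraries and quasi-likelihood tests with 8 residual degrees of freedom. The 11707 genes tested were called where their p, adjusted by Benjamini-Hochberg over all of them, was under 0.05. CPM are TMM-scaled, and a log2 change is given with the fit's SE. Pairs of replicates had a chi-square per gene of 1.75 to 3.43 with TGF-β1 and 1.68 to 13.65 without it, so none agree within sampling noise. Alternatives were DESeq2 1.42.0, its size factors in edgeR, limma 3.58.1 on log2(TPM + 1), no filter, only the 2 groups compared, a replicate block, an absolute log2 change of at least 1 and each library left out.

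The comparison, the members of the 44 lists and the words searched were chosen with earlier results of these data known, so no list is given a test. Lists are described by counts and medians. The text names Fh1, Akap12, the 12 called genes with the largest increase and the 12 with the largest decrease (group mean of 5 CPM or more, no overlap, a call also without KD+TGF-β1 replicate 1, no clone name), 8 markers, and called members of lists from the 5 with the largest change. Preference among the latter went to genes called in each fit without 1 TGF-β1 library. Members that were not called are named where they complete a complex or pathway, chosen after their values were seen, as were the genes shown by sequence. Certain genes that this rule takes are not reported here. Intervals cover the spread between libraries only.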

Additional observations from a re-analysis of the deposited data

Results flagged for a closer look

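For 33 of the named genes the change with silencing differed between cells with and without TGF-β1, at an adjusted p under 0.05 for the interaction over all genes tested. The value given is the log2 change with TGF-β1 minus that without. It was above 0 for Slc7a11 (0.916), Nupr1 (0.59), Chac1 (0.567), P2rx4 (0.536), Slc6a9 (0.528), Hmga2 (0.501), Sesn2 (0.459), Mbd6 (0.443), Ptpn22 (0.429), Slc7a5 (0.357), Sqstm1 (0.338), Asns (0.336), Slc3a2 (0.271), Vegfa (0.264), Nars (0.263), Mthfd2 (0.255), Clcn5 (0.254), Cars (0.254), Gars (0.223) and Abcc4 (0.192). It was below 0 for Fh1 (-0.98), Cd209c (-0.692), Lcn2 (-0.645), Clca3b (-0.572), Cx3cl1 (-0.474), Gpd1l (-0.345), Vipas39 (-0.342), P4ha1 (-0.3), Spp1 (-0.27), Fbxw11 (-0.247), Cdh3 (-0.24), Tnfaip3 (-0.239) and Myh10 (-0.211). Among members named for completeness, it was also past that threshold for Trib3 (0.492), Atf4 (0.23), Psat1 (0.20) and Mcm2 (-0.243). The adjusted p of all these interactions ran from 8.18e-06 to 0.0499. Each setting has its own deposited table and its own depth of Fh1 loss, and neither can be told apart from the effect of TGF-β1.

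In data outside the comparisons, the pluripotency markers had 810 estimated counts in KD+TGF-β1 replicate 1, above the 179 that was the most in another library. In the same library 61 genes had 3 or more counts and 0 in the 11 others. Their part in single results was not tested beyond the fit without that library.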

How the results depend on the processing

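The count of 1340 calls for silencing with TGF-β1 was 871 by DESeq2 and 16 with an absolute log2 change of at least 1. It ran from 783 to 1732 without 1 of the 12 libraries, and was 859, 885 and 783 where replicates 1, 2 and 3 of KD+TGF-β1 were left out. Fitting only the 2 groups compared gave 1903, size factors 1241, no filter 1181 and limma on TPM 1220. The 429 calls without TGF-β1 became 151 with only the 2 groups compared. Without 1 library they ran from 212 to 647: 271 and 647 without NC replicates 2 and 3, and 212, 232 and 215 without KD replicates 1, 2 and 3. The 104 interaction calls ran from 37 to 146. They were 67 without NC replicate 2, 46, 38 and 37 without KD replicates 1, 2 and 3, 68 and 64 without NC+TGF-β1 replicates 1 and 3, and 59, 64 and 38 where replicates 1, 2 and 3 of KD+TGF-β1 were left out. The causes were not tested. The log2 change of Fh1 ran from -1.85 to -1.74 over all alternatives and -1.85 to -1.78 without 1 library.

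With the replicate block the counts were 1150 with TGF-β1, 327 without and 54 for the interaction. Same-numbered libraries did not deviate together (r of -0.085 to 0 with TGF-β1 and -0.097 to 0.07 without), so the numbers were not taken as pairs. The naming rule takes 182 genes, of which 177 were called, and 181 of the 182 were followed here. Of these, 31 lost their call by DESeq2, 20 by limma, 12 under the block, 8 without a filter, 6 with size factors and 1 with only the 2 groups compared, and 0 changed sign. Over the fits without 1 of the 12 libraries 231 of 2172 values lost theirs. Depth limits what genes under 5 CPM can show.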

Other observations

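Several further lists gave calls with TGF-β1, where 5.42% of all genes tested were called higher and 6.02% lower. Of 31 tested genes of lysosomes and autophagy 7 rose and 0 fell (median 0.056), Sqstm1 most, and 2 rose without KD+TGF-β1 replicate 1. Of 21 tested genes for chaperones and the unfolded protein response 2 rose, the sensors Atf6 (from 66.9, 65.1 and 68.6 to 78.1, 79.1 and 77.2 CPM; 0.225, adjusted p = 0.000963) and Ern1 (0.21, adjusted p = 0.0111), and 1 fell, the mannosidase-like Edem1 (from 99.9, 103 and 107 to 86.1, 87.4 and 87.9 CPM; -0.24, adjusted p = 0.00109), while the median was -0.008. Ern1 lost its call in 2 of the 6 (adjusted p up to 0.056) fits without 1 TGF-β1 library. In the Notch pathway 1 of 14 tested genes rose, the ligand Dll1 (0.28, adjusted p = 0.0282), and 2 fell, Nrarp, a feedback inhibitor (from 17.4, 14.1 and 15.6 to 11.8, 11.7 and 11.96 CPM; -0.41, adjusted p = 0.00328), and the receptor Notch1 (-0.23, adjusted p = 0.0108). Without KD+TGF-β1 replicate 1 it was 0 and 1. Dll1 and Notch1 lost their calls in 4 of the 6 (adjusted p up to 0.12) and 3 of the 6 (adjusted p up to 0.0544) fits. Among 11 tested EGFR receptors and ligands the ligand Hbegf rose (from 252, 239 and 265 to 264, 284 and 284 CPM; 0.14, adjusted p = 0.0427) with overlap of the groups, and Nrg1 fell (-0.17, adjusted p = 0.0171). Both lost their calls, in 4 of the 6 (adjusted p up to 0.158) and 3 of the 6 (adjusted p up to 0.0765) fits.

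Hmga2, a chromatin protein of growth and mesenchymal change, stood at 142, 146 and 136 CPM in NC+TGF-β1 and 159.8, 170.5 and 174 CPM in KD+TGF-β1 libraries (log2 change 0.25, SE 0.044, adjusted p = 0.00254). Without TGF-β1 it fell with silencing, by 0.25 on the log2 scale (adjusted p = 0.0036). Clca3b, an airway-type chloride channel accessory protein with close relatives, fell from 479, 521 and 464 to 338, 346 and 343 CPM (log2 change -0.51, SE 0.043, adjusted p = 7.45e-06), where its change without TGF-β1 was 0.061 (adjusted p = 0.503).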
